A study of Drosophila melanogaster with 6 samples.

Results

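The Argonaute family of *Drosophila melanogaster* has 5 genes, namely *aub*, *AGO3* and *piwi* of the PIWI clade and *AGO1* and *AGO2* of the AGO clade. The members were taken by symbol from a table of 17807 genes, and all 5 were found and passed the filter on low counts, as did 7893 genes in all. Argonaute proteins hold a small RNA and use it to find complementary transcripts. PIWI-clade proteins are loaded with piRNAs, which silence transposons in the gonad: Aub and Ago3 cut transposon and piRNA precursor transcripts in turn in the cytoplasmic nuage of germ cells (the ping-pong cycle), whereas Piwi enters the nucleus of both germ cells and follicle cells and silences transposons there. Of the AGO clade, AGO1 carries microRNAs and AGO2 carries siRNAs, including transfected ones.

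All libraries came from Δ*l(3)mbt* OSCs, cells of a cultured ovarian somatic (follicle cell) line that lack *l(3)mbt* in both groups. L(3)mbt is a chromatin protein that keeps germline genes silent in the soma, and Ovo is a DNA-binding activator that female germ cells need. Either *ovo* (3 libraries) or, as the control, *renilla* luciferase (3 libraries) was targeted with duplexes of 21 nt, and cells were harvested after 48 h. The comparison asks which Argonaute genes depend on *ovo* in somatic cells that lack L(3)mbt. The *l(3)mbt* wild-type line was not analysed here, and both groups hold siRNA-transfected cells, so that neither group shows Argonaute levels without transfection.

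The antisense strand of the *ovo* siRNA is shown because AGO2 takes up such a strand as its guide and because its seed, bases 2 to 8 (in capitals), is where off-target pairing would start. It pairs with X:5066359-5066379 of the dm6 genome, in an exon of *ovo* on the plus strand.

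ovo siRNA antisense strand: uCGUCGUCcacgcagcuccuu

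The sense strand matched all 5 annotated *ovo* transcripts, and the longest run complementary to the guide was 21 nt in *ovo*. It was 9 nt in *aub*, 8 nt in *piwi*, *AGO1* and *AGO2*, and 6 nt in *AGO3*. A perfect match to the seed was found in *AGO1* (1 site, in the 3′ UTR) and in no annotated transcript of the other 4 genes. Of the tested genes with annotation, 26.1% had such a match somewhere in a transcript and 2.66% had one in a 3′ UTR. Whether the site in *AGO1* plays a part in its level was not tested.

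The libraries held between 2759594 and 21481506 counted reads, with the lowest total in *renilla* siRNA replicate 3. This library also stood apart on the second principal component (30.8% of the variance), so the members, their ratios and the partners that passed are given with and without it. The labels do not say whether replicates were separate cultures, so p-values measure only the spread between these libraries. The siRNA target *ovo* was at 961, 885 and 875 normalized counts in *ovo* siRNA replicates 1, 2 and 3 and at 1300, 1590 and 1642 in the *renilla* siRNA replicates. All *ovo* siRNA libraries were thus below all controls, and *ovo* fell 1.66-fold (log2 fold change −0.73 ± 0.13 SE, limma adjusted p = 0.00862). Leaving out *ovo* siRNA replicate 2 ended that call (adjusted p = 0.0601), as did the removal of a trend in transcript GC content and length (−0.42, adjusted p = 0.147). Transcripts of *l(3)mbt* were at 2911 ± 426 and 2334 ± 582 normalized counts (SD, n = 3) after *ovo* and *renilla* siRNA, and a count per gene does not show the deletion. Of 6 follicle cell markers all were tested, 4 (*tj*, *zfh1*, *mirr* and *br*) fell and 1, *fs(1)Yb*, rose, against 14.1% and 11.8% of all genes tested. *mirr* passed in all 19 alternatives. Leaving out 1 library ended the calls of *tj* (in 5 of 6 fits), *zfh1* and *fs(1)Yb* (4 of 6 each) and *br* (1 of 6), and *br* was at −0.05 on the log2 scale with the GC and length trend taken out (adjusted p = 0.725). All 5 passed without *renilla* siRNA replicate 3, a fit in which 3905 of 7723 genes tested passed. The summed level of all 6 follicle cell markers was 21430 to 26282 normalized counts after *ovo* siRNA and 33682 to 39915 in the controls. Of the germ cell markers, *vas* and *bgcn* were well detected and *nos*, *bam* and *osk* were below the filter. Of the other cell types, 3 of 4 hemocyte, 1 of 4 muscle and 3 of 4 neuron markers were below the filter, and no marker of these lists was at 0 in every library. *Mlc2*, of muscle, rose from a mean of 11.9 to 27.6. Its call ended in 4 of 6 fits with 1 library left out, with no filter (adjusted p = 0.0847) and with thinned reads (adjusted p = 0.268). The neuron marker *elav* was at 1693 and 2015 normalized counts, and fell without *renilla* siRNA replicate 3 (−0.39, adjusted p = 0.0108). With the GC and length trend taken out *elav* rose instead (0.81, adjusted p = 0.00128), as it did with 3′ UTR length added (0.77, adjusted p = 0.00495). The part of these shifts in the results below was not tested. In bulk RNA, fewer cells that make a transcript and less of it per cell cannot be told apart.

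**Figure D1:**
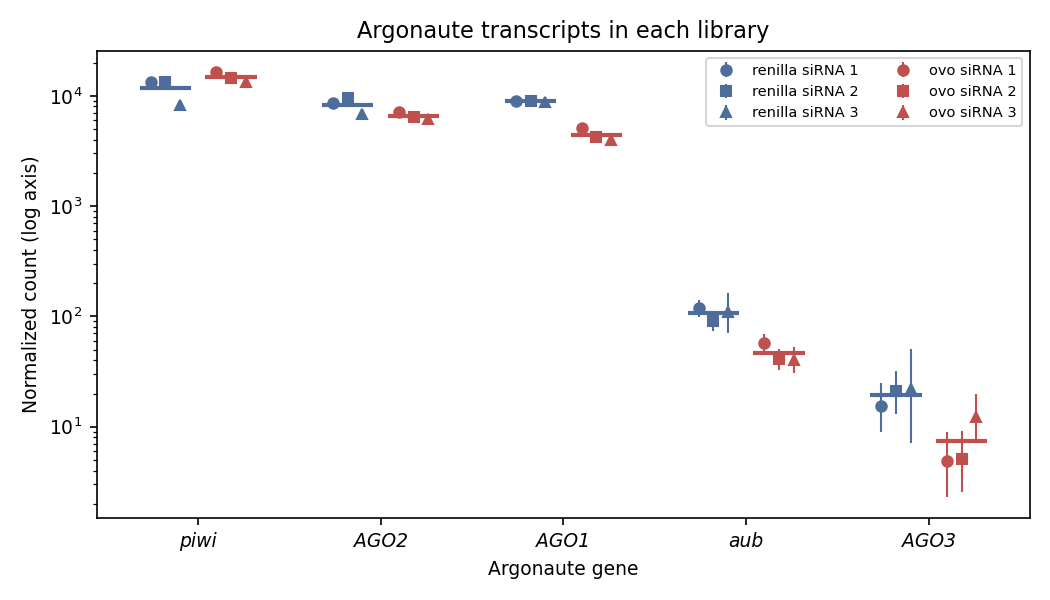
Normalized counts (log axis) of the 5 Argonaute genes in each library. Points are libraries, with the replicate number given by the symbol; bars are 95% Poisson intervals of the reads, which cover counting error only, and horizontal lines are group means. The groups are separate for *aub*, *AGO3* and *AGO1* and overlap for *piwi* and *AGO2*, and *AGO3* has the widest intervals.

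Of the 5 genes, *aub*, *AGO3* and *AGO1* fell after *ovo* siRNA, and *piwi* and *AGO2* did not pass the test. Over all genes tested, 14.1% fell and 11.8% rose at the same threshold (adjusted p under 0.05), and the median log2 fold change was 0.04. In *aub*, *AGO3* and *AGO1* every *ovo* siRNA library was below every control library, which held for 21.7% of all genes tested.

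The gene *aub* (2L:10997819–11001476, minus strand, 9 merged exons) encodes the ping-pong Argonaute that mostly holds antisense piRNAs. Its level was 57.2, 40.9 and 40.6 normalized counts in *ovo* siRNA replicates 1, 2 and 3 and 119, 90.7 and 109 in the *renilla* siRNA replicates. The lowest control was well above the highest knockdown library. Means were 107 ± 14.6 in the controls and 46.2 ± 9.53 after *ovo* siRNA (SD, n = 3). The limma fit gave a 2.29-fold fall (log2 fold change −1.20 ± 0.22 SE, 95% interval −1.70 to −0.69, limma adjusted p = 0.00884). It was −1.17 without *renilla* siRNA replicate 3 (adjusted p = 0.00163). Leaving out *ovo* siRNA replicate 2 ended the call (−1.12, adjusted p = 0.0584). These values rest on 25 to 131 reads per library.

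The gene *AGO3* (3L:23554593–23689640, plus strand) encodes the ping-pong partner of Aub, which holds mostly sense piRNAs. Its transcripts span 135 kb of the chromosome but join only 3182 bp of merged exons. It was the lowest of the family, at 4.85, 5.11 and 12.3 normalized counts after *ovo* siRNA and 15.5, 21.0 and 21.9 after *renilla* siRNA. These stand for 10, 11 and 17 reads and for 17, 22 and 5 reads. The groups did not overlap, but the Poisson intervals of *ovo* siRNA replicate 3 (7.18 to 19.7 normalized counts) and *renilla* siRNA replicate 1 (9.02 to 24.8) did, and that of *renilla* siRNA replicate 3 reached from 7.11 to 51.1. Means were 19.5 ± 3.47 in the controls and 7.43 ± 4.24 after *ovo* siRNA. The limma fit gave a 2.59-fold fall (log2 fold change −1.37 ± 0.42, 95% interval −2.36 to −0.39, limma adjusted p = 0.0486). It passed in 8 of 18 alternatives, and its direction was the same in all 18. The call ended when *ovo* siRNA replicate 1 (adjusted p = 0.137) or 2 (0.179) or *renilla* siRNA replicate 1 (0.0803) or 2 (0.143) was left out. Without the shallow *renilla* siRNA replicate 3 it was −1.29 (adjusted p = 0.0337). Once the trend in GC and length was taken out it was −0.71 (adjusted p = 0.264).

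The gene *piwi* (2L:10982205–10987420, minus strand) encodes the nuclear PIWI protein, the one PIWI-clade member that follicle cells normally use. Its level was 16251, 14341 and 13406 normalized counts in the *ovo* siRNA libraries and 13461, 13387 and 8302 in the controls. The groups overlapped, and the low control was *renilla* siRNA replicate 3. The difference did not pass the test (log2 fold change 0.35 ± 0.22, 95% interval −0.15 to 0.86, limma adjusted p = 0.262). Without that library it was 0.12 (adjusted p = 0.455). Once the trend in GC and length was taken out it was 0.59 and passed (adjusted p = 0.0217).

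The gene *AGO1* (2R:13943387–13958089, minus strand) encodes the microRNA Argonaute. Its level was 5145, 4211 and 4004 normalized counts after *ovo* siRNA and 8972, 9027 and 8788 after *renilla* siRNA. The coefficient of variation of the controls, *renilla* siRNA replicate 3 included, was 1.40%, and all of them were far above the knockdown libraries. Means were 8929 ± 125 in the controls and 4454 ± 608 after *ovo* siRNA. The limma fit gave a 2.02-fold fall (log2 fold change −1.01 ± 0.14, 95% interval −1.33 to −0.69, limma adjusted p = 0.00363). The call held with each library left out, with log2 fold changes from −1.12 to −0.94 and adjusted p of at most 0.0342. It did not hold with a trend in transcript GC and length removed from each library (−0.28, adjusted p = 0.119), nor with 3′ UTR length added to that trend (−0.22, adjusted p = 0.0560).

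*AGO1* is the longest transcript of the family, with 8278 bp of merged exons against 3015 to 4144 bp in the others, and its annotated 3′ UTRs run from 435 to 4585 bp. Across all genes, the log2 fold change fell with length (Spearman's rho = −0.17 over 7868 genes) and with the longest 3′ UTR (−0.31 over 7534 genes) and rose with GC content (0.46). Genes are not independent replicates in these correlations. Among the 787 genes of the highest decile of merged exon length, the median log2 fold change was −0.46, and 19.8% fell further than *AGO1*. Among the 754 genes of the highest decile of 3′ UTR length the median was −0.52, and 21.6% fell further. The other genes that fell, *aub* and *AGO3*, stood in decile 7 of merged exon length, where the median was 0.12 and 4.83% and 3.56% of genes fell further. The GC content of the merged exons was 33.9% in *AGO3*, 45.9% in *aub*, 44.2% in *piwi*, 42.7% in *AGO1* and 48.7% in *AGO2*. With the trend in GC and length removed, *aub* was at −1.09 (adjusted p = 0.0101) and *AGO3* at −0.71 (adjusted p = 0.264).

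The gene *AGO2* (3L:15554113–15561042, plus strand) encodes the siRNA Argonaute. Its level was 7154, 6409 and 6205 normalized counts in the *ovo* siRNA libraries and 8519, 9466 and 6901 in the controls. The groups overlapped through *renilla* siRNA replicate 3. The difference did not pass the test (log2 fold change −0.32 ± 0.16, 95% interval −0.69 to 0.04, limma adjusted p = 0.170). Without that library it was −0.45 and passed (adjusted p = 0.00939), and so did the value with the trend in GC and length taken out (−0.30, adjusted p = 0.0302).

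**Figure D2:**
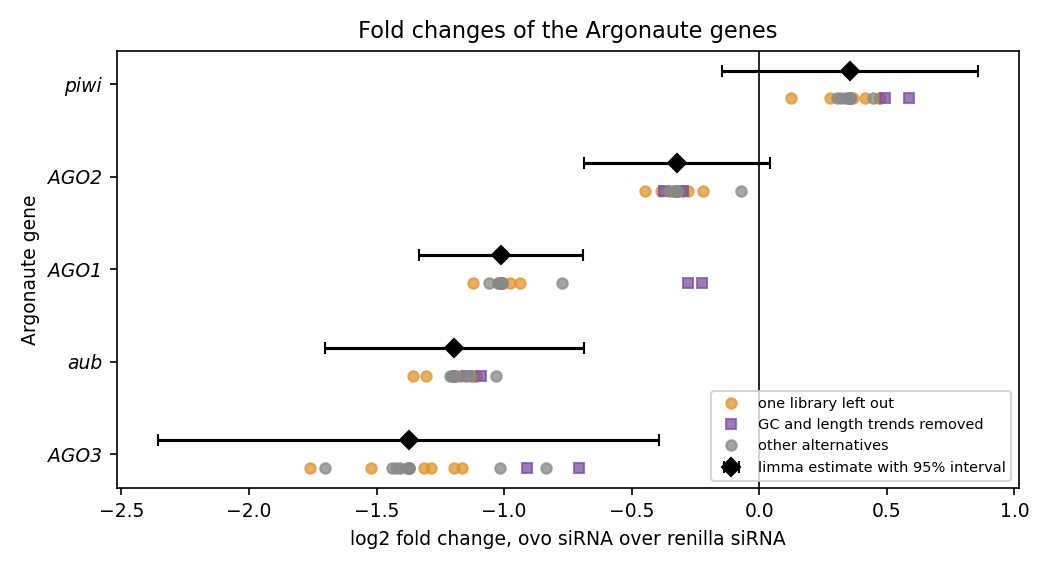
Log2 fold change of each Argonaute gene, *ovo* siRNA over *renilla* siRNA (x axis), with its 95% interval from limma (diamonds), and the value under each alternative below it. The intervals of *aub*, *AGO3* and *AGO1* lie below 0 and those of *piwi* and *AGO2* include it; the alternatives with a GC and length trend removed stand apart for *AGO1*, at −0.28 and −0.22.

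The longest run of identical bases between transcripts of any pair of members was 15 nt (*aub* and *piwi*), against a read length of 50 nt. No member shares exon sequence with a gene on the same strand. Genes on the opposite strand overlap the exons of *aub* (*TTLL4A*, 79 bp), *piwi* (*SCAR*, 191 bp), *AGO1* (*CG33155* and *mRpL53*, 229 bp) and *AGO2* (*CG7739*, 317 bp), and the reads were counted by strand.

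Levels of different genes were compared as normalized counts per kb of merged exon. The order in both groups was *piwi*, *AGO2*, *AGO1*, *aub* and *AGO3*, and it held in every one of the 6 libraries. The place of *AGO1* below *AGO2* depends on the length used, 8278 bp for *AGO1*, whose 3′ UTRs are annotated from 435 to 4585 bp. Which 3′ UTR these cells use was not tested, and the only other length tried was the longest transcript (7888 bp). Undivided, *AGO1* and *AGO2* were at 8929 and 8295 normalized counts in the controls and at 4454 and 6589 after *ovo* siRNA. In the controls *piwi* stood at 3813 ± 962 normalized counts per kb (SD, n = 3), *AGO2* at 2002 ± 313, *AGO1* at 1079 ± 15.1, *aub* at 35.3 ± 4.83 and *AGO3* at 6.12 ± 1.09. After *ovo* siRNA they stood at 4773 ± 472, 1590 ± 120, 538 ± 73.5, 15.3 ± 3.16 and 2.33 ± 1.33 normalized counts per kb. No pair of neighbours in that order overlapped between libraries of a group. The closest was *piwi* and *AGO2* in the controls, with 2702 as the lowest level of *piwi* and 2284 as the highest of *AGO2*. Per length, *piwi* was above 97.6% of all genes tested in the controls, whereas *aub* was above 14.6% and *AGO3* above 2.63%.

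Within the PIWI clade, *aub* made up 0.967% ± 0.325 of the summed level per length in the controls and 0.318% ± 0.0353 after *ovo* siRNA, and *AGO3* 0.170% ± 0.0725 and 0.0505% ± 0.0330. The ping-pong Argonautes were thus a small part of the PIWI-clade RNA in both groups, and *piwi* made up at least 98.4% in each library. Within the AGO clade, *AGO1* made up 34.5%, 32.3% and 38.9% in the controls and 26.5%, 24.8% and 24.4% after *ovo* siRNA. The groups did not overlap, and *AGO2* made up the remainder. The size of these shares depends on the length taken for *AGO1*.

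Ratios of 2 members were taken within each library, with 1 added to each normalized count, so that those with *AGO3* still depend on the scaling and on the added count (a difference of −1.79 on the log2 scale for *AGO3* over *piwi* with 0.5 added and −1.37 with 5). In each of the 10 pairs the difference in mean log2 ratio between the groups was tested by an exact permutation test over the 6 libraries (two-sided), for which 0.1 is the smallest possible p. In 6 pairs the groups did not overlap, each with exact p = 0.1 (Benjamini-Hochberg 0.167 over 10 pairs), so that no ratio could pass a threshold of 0.05. Over all pairs of genes tested the groups did not overlap in 45.5%, and the 10 pairs come from only 5 genes, so nothing is read from the count of 6. The ratio of *piwi* to *AGO1* was 3.16, 3.41 and 3.35 after *ovo* siRNA and 1.5, 1.48 and 0.945 in the controls. It was higher in all 3 *ovo* siRNA libraries, by 2.58-fold on average. The ratio of *AGO1* to *AGO2* was 0.719, 0.657 and 0.645 after *ovo* siRNA and 1.05, 0.954 and 1.27 in the controls, and was 1.61-fold lower. The ratio of *aub* to *piwi* was 2.93-fold lower after *ovo* siRNA, that of *AGO3* to *piwi* 3.31-fold lower, that of *aub* to *AGO2* 1.83-fold lower and that of *piwi* to *AGO2* 1.60-fold higher. Ratios among the genes that fell overlapped between the groups. The difference was 0.18 on the log2 scale for *aub* over *AGO3* (exact p = 0.8), −0.18 for *aub* over *AGO1* (exact p = 0.3) and −0.36 for *AGO3* over *AGO1* (exact p = 0.6). Without *renilla* siRNA replicate 3 all 10 differences kept their direction, with 1.15 on the log2 scale for *piwi* over *AGO1*, −0.57 for *AGO1* over *AGO2*, −1.29 for *aub* over *piwi* and −1.41 for *AGO3* over *piwi*. With 3 libraries a group these tests cannot show that the ratios were equal.

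**Figure D3:**
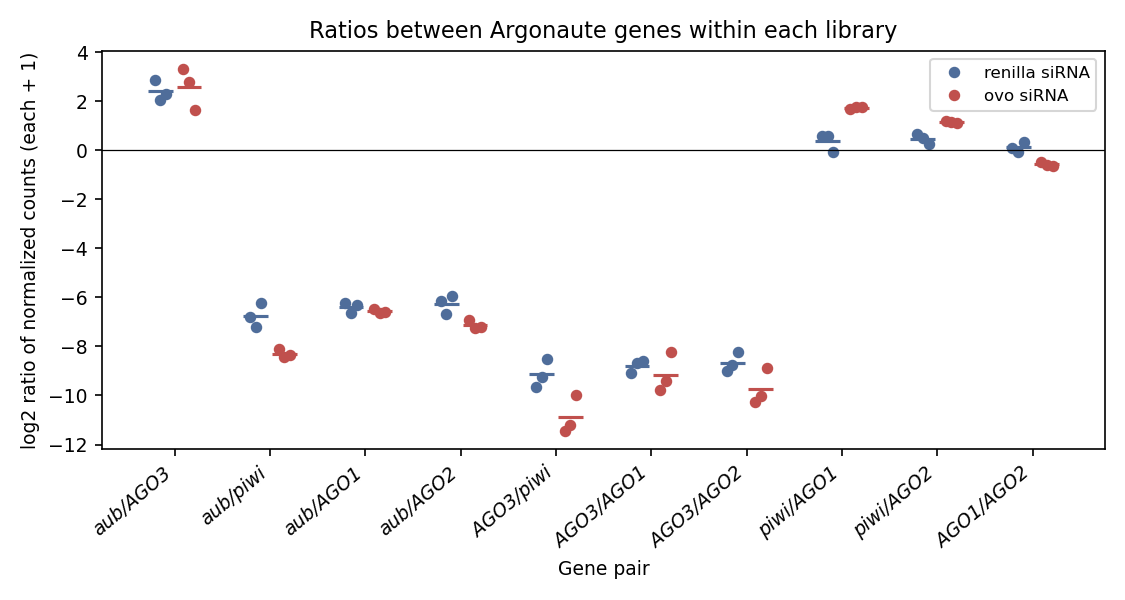
Log2 ratio of normalized counts, each with 1 added, for the 10 pairs of Argonaute genes. Points are libraries and lines are group means; the groups are separate in 6 pairs, among them *piwi*/*AGO1* and *AGO1*/*AGO2*, and overlap for *aub*/*AGO3* and *aub*/*AGO1*.

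The zinc finger protein encoded by *ovo* binds the letters CNGTTA. The 150 bases upstream of annotated start sites are shown for 4 of the members (Ensembl annotation, dm6), with matches to CNGTTA on either strand in capitals, so that *aub* and *AGO3*, which fell, can be read beside *piwi* and *AGO2*, which did not pass the test. The window of *AGO1*, which also fell, is not printed, and its matches are given in words. They cover 2L:11001477-11001626 (*aub*), 3L:23554443-23554592 and 3L:23555775-23555924 (the first and second starts of *AGO3*), 2L:10987421-10987570 (*piwi*) and 3L:15553963-15554112 (*AGO2*), each on the strand of its gene.

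aub: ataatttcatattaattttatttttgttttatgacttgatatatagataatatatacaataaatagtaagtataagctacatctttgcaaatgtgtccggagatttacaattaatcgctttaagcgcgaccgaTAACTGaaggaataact
AGO3, first start: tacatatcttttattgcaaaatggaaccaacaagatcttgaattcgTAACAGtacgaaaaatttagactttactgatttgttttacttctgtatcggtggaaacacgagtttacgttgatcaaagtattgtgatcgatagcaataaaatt
AGO3, second start: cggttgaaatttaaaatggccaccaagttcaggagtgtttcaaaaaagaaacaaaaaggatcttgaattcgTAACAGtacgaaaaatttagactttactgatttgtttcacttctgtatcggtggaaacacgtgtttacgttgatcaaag
piwi: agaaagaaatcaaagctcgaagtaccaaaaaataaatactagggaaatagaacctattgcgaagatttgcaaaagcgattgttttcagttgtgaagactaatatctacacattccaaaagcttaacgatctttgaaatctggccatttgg
AGO2: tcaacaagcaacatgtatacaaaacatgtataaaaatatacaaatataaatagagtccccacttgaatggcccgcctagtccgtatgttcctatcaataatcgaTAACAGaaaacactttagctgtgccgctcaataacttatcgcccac

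In the window from 250 bases upstream to 50 bases downstream of a start site, the first start of *aub* had 2 matches, at −17 (antisense) and +37 (sense), and its second start had none. The first start of *AGO3* had 1 match, at −104, and the second had 2, at −164 and −79. *AGO2*, which did not pass the test, had 1 match at −46 of its first start. No match was found in the window of *piwi*. *AGO1* had a match at −204 of its first start and 2 at −194 and −171 of its start 3. Those at −204 and −171 were of the form CCGTTA, which no window of the other members held. In windows of the same 300 bases at 13980 protein-coding genes, 38.8% held CNGTTA and 8.86% held CCGTTA, which is included in the former. A gene read at more starts has more chances of a match, and *AGO1* was read at 3. These shares are not adjusted for that. A match is a description of letters and not a binding site. The upstream windows of the pair of *AGO3* starts, 1332 bp apart, share 105 of 125 aligned bases (84.0%) with an identical run of 50 bases around the match, so that the matches at −104 and −79 lie in a shared stretch.

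The genes *piwi* and *aub* lie 10.4 kb apart on 2L, on the same strand, with *CG12253* and *TTLL4A* between them. Of the 16 genes within 25 kb of *aub*, 12 were tested, *asRNA:CR45778* fell, and the median log2 fold change was 0.13. *TTLL4A*, which overlaps the end of *aub*, stood at 0.13 ± 0.17 (adjusted p = 0.592) and *CG12253* at 0.22 ± 0.14 (adjusted p = 0.284). *RpL9*, a ribosomal protein gene 1281 bp upstream of the start of *aub*, stood at −0.03 ± 0.32 (adjusted p = 0.956). The antisense RNA gene *asRNA:CR45778* was at 0.970, 2.79 and 2.90 normalized counts after *ovo* siRNA and 21.9, 20.0 and 13.1 in the controls. It fell 6.16-fold (adjusted p = 0.00775) from very few reads, 9685 bp from *aub*. The gene *lectin-33A*, 595 bp from *aub*, was at 0.483 ± 0.837 and 5.42 ± 3.06, lower in every *ovo* siRNA library, and was below the filter. None of the coding genes tested within 25 kb of *aub* passed with limma, and the groups overlapped for each of these tested genes. *asRNA:CR45778* was not tested in the fits that left out a control library.

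**Figure D4:**
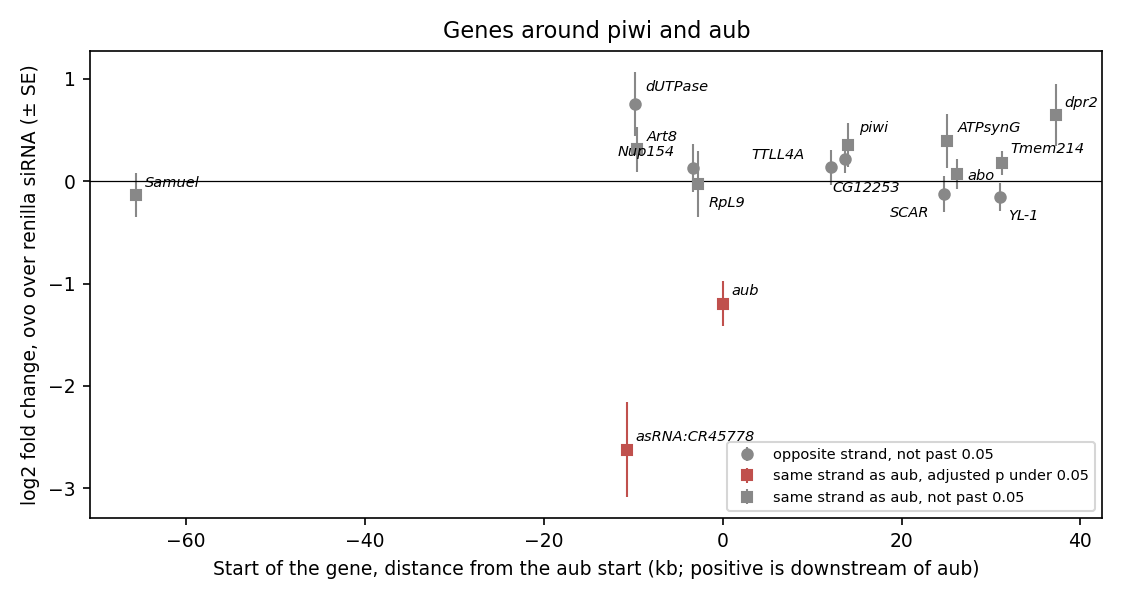
Log2 fold change (± SE) of tested genes within 25 kb of *piwi* or *aub*, against the distance of their start from that of *aub* in kb, with positive values downstream of *aub*. Red symbols passed the threshold: *aub* (−1.20) and *asRNA:CR45778* (−2.62).

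Around *AGO1*, 7 of 12 neighbours were tested. Of these *shot*, which encodes a cytoskeletal linker and lies 1276 bp past the end of *AGO1* on the same strand, fell 1.95-fold, from 4626 ± 136 to 2430 ± 644 (adjusted p = 0.0107). Its change was −0.03 on the log2 scale after removal of the GC and length trend (adjusted p = 0.869), and its call ended when *ovo* siRNA replicate 2 (0.0615) or 3 (0.0540) was left out. *Ctf4*, a replication fork gene, rose 1.75-fold (adjusted p = 0.00560) and *CG42806* rose 1.51-fold (0.0488), and *CG42806* passed in 9 of 19 alternatives. Around *AGO2*, all 11 neighbours were tested. *CrebA*, a transcription factor gene of the secretory pathway that ends 898 bp before *AGO2*, fell 2.13-fold from 6415 ± 2198 to 2936 ± 513 (adjusted p = 0.0168). That call ended when *ovo* siRNA replicate 2 (0.0836) or 3 (0.0728) was left out and with the trend removed (−0.59, adjusted p = 0.143). *Ufsp2* (*CG16979* in the table), a UFM1 peptidase gene, rose 1.40-fold (0.0206) and passed in 13 of 19 alternatives. The only neighbour of *AGO3* within 25 kb, *lncRNA:CR45174*, was below the filter.

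The partners of the Argonaute proteins were read by their role. Of 11 partners used only in the germline, 9 were tested and 1, *qin*, fell, with a median log2 fold change of −0.03. Over all genes tested 14.1% fell and 11.8% rose. Unadjusted, 4 fell and 0 rose at p under 0.05, and edgeR and DESeq2 gave 1 and 2 falls and 0 rises. Over all 7893 genes edgeR gave 1260 falls and 1024 rises, and DESeq2 gave 1492 and 1142. No share over all genes was taken for the unadjusted counts. With the trend in GC and length taken out, 1 rose and 1 fell, against 969 and 1101 of 7868 genes. *qin* encodes a Tudor domain protein of the nuage that keeps the ping-pong between Aub and Ago3. It was at 82.0, 57.1 and 63.1 normalized counts after *ovo* siRNA and 241, 260 and 118 in the controls, and fell 2.90-fold (log2 fold change −1.53 ± 0.32, limma adjusted p = 0.0129). The groups did not overlap. Leaving out *ovo* siRNA replicate 2 or 3 or *renilla* siRNA replicate 2 ended the call, with an adjusted p of up to 0.0683. The RNA helicase gene *vas*, at 2252 ± 151 and 1963 ± 271 (adjusted p = 0.315), and the Tudor gene *krimp*, at 2084 ± 144 and 2134 ± 124 (0.853), did not pass. *rhi* and *moon*, which act on germline piRNA clusters, were below the filter.

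A list of 30 further piRNA partners holds those outside the first list, among them *fs(1)Yb*, a follicle cell gene. It also holds factors that act in the germline, such as *squ*, *tapas* and *spn-E* of the nuage. Of the 30, 2 rose, 4 fell and 24 did not pass, with a median of 0.03. Over all genes tested 11.8% rose and 14.1% fell. With the trend in GC and length taken out, 6 rose and 1 fell, against 969 and 1101 of 7868 genes. *tud*, whose product binds methylated arginines of Aub and Ago3, was at 3648, 2587 and 2600 normalized counts after *ovo* siRNA and 8275, 9002 and 6700 in the controls. The groups were widely apart. It fell 2.73-fold (−1.45 ± 0.19, adjusted p = 0.00300) and passed in all 19 alternatives, with −0.95 once the GC and length trend was removed (adjusted p = 0.000516). *Trf2*, a TBP-related factor that transcribes piRNA clusters with Moonshiner, fell 2.38-fold from 16049 ± 1530 to 6796 ± 1149 (−1.25 ± 0.17, adjusted p = 0.00325). With the trend removed it was −0.35 (adjusted p = 0.162).

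Of the factors that act with Piwi in the nucleus, *ova* fell 1.66-fold (adjusted p = 0.0205) and *ctp*, a dynein light chain gene, fell 1.37-fold (0.0320). The trend-removed log2 fold changes were −0.22 for *ova* (0.290) and 0.29 for *ctp* (0.0781), so that the direction of *ctp* turned. With 3′ UTR length added to the trend *ova* passed as a fall (−0.34, 0.0394) and *ctp* as a rise (0.30, 0.0198). *fs(1)Yb*, which builds the Yb bodies where Piwi is loaded in follicle cells, rose 1.53-fold from 835 ± 174 to 1260 ± 68.9 (adjusted p = 0.0353). *vls*, a cofactor of the arginine methylation of PIWI proteins, rose 1.55-fold from 352 ± 21.7 to 546 ± 37.8 (adjusted p = 0.0110). Its value was 0.16 with the trend removed (0.314). Leaving out 1 library lost the calls of *fs(1)Yb* (*ovo* siRNA replicates 1, 2 or 3 or *renilla* siRNA replicate 2), *vls* (*ovo* siRNA replicates 2 or 3), *ova* and *ctp* (for both, *ovo* siRNA replicates 2 or 3 or *renilla* siRNA replicates 1 or 2), with adjusted p of up to 0.150. All 7 partners named as rising or falling passed without *renilla* siRNA replicate 3, a fit in which 3905 of 7723 genes tested passed. There *qin* was at −1.89, *tud* at −1.57, *Trf2* at −1.17, *ova* at −0.91, *ctp* at −0.47, *fs(1)Yb* at 0.44 and *vls* at 0.68.

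Of 16 partners of AGO1 and AGO2, all were tested with limma and none passed the threshold, and the median log2 fold change was 0.08. Over all genes tested 14.1% fell and 11.8% rose. Unadjusted, 1 fell and 0 rose at p under 0.05. edgeR gave 0 and DESeq2 gave 2 falls, against 1260 and 1492 falls over all 7893 genes. Once the GC and length trend was taken out 3 rose and 2 fell, against 969 and 1101 of 7868 genes. Those that rose were *gw* (0.35, adjusted p = 0.0172, against −0.22 in the main fit), *Dcr-2* (0.41, 0.0380) and *Ranbp21* (0.42, 0.0372). Those that fell were *Hsp83* (−0.45, 0.0307) and *Stip1* (−0.57, 0.00375). The values below are those of the main fit. The microRNA partner of AGO1, *gw*, was at 3479 ± 426 normalized counts after *ovo* siRNA and 4098 ± 843 in the controls (adjusted p = 0.411). The Dicer genes stood at 681 ± 153 and 670 ± 245 (*Dcr-1*, which makes microRNAs; 0.881) and at 7365 ± 1197 and 7294 ± 2201 (*Dcr-2*, which makes siRNAs; 0.899). Of the chaperone genes that load the AGO proteins, *Hsc70-4* and *Hsp83* were the highest of this list, with *Hsc70-4* at 37212 ± 2315 and 33703 ± 4017 (0.559) and *Hsp83* at 27867 ± 388 and 33755 ± 1145 (0.207).

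**Figure D5:**
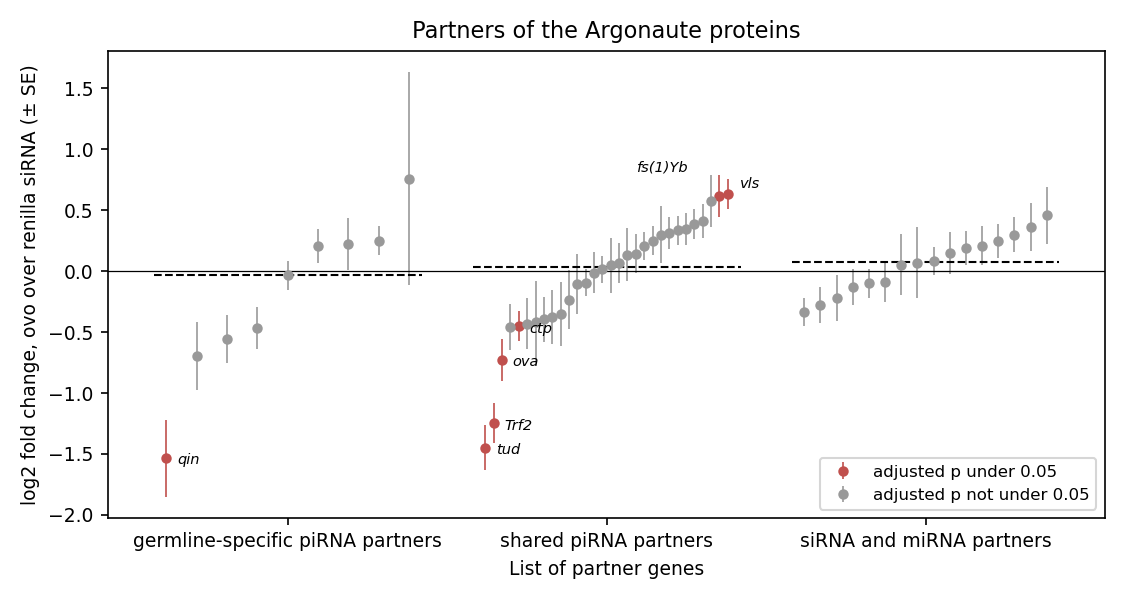
Log2 fold change (± SE) of the tested partners of the Argonaute proteins in 3 lists, ordered by value within a list. Red points passed the threshold and dashed lines are list medians of −0.03, 0.03 and 0.08; *qin*, *tud* and *Trf2* are the lowest.

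The genes most like each member were taken as those with the highest Pearson correlation of log2 (normalized count + 1) over the 6 libraries, among genes tested whose mean reached 50 normalized counts. The points share libraries, depth and the difference between groups, and the values are descriptions. For *aub* these were *CG16749* (0.994), *Ing5* (0.992) and *ct* (0.992), of which *ct* encodes the homeodomain protein Cut and stood at 326, 232 and 255 normalized counts after *ovo* siRNA and 665, 578 and 701 in the controls. For *AGO3* they were *Oseg5* (0.995), *CG42367* (0.991) and *hdm* (0.986), a meiotic recombination gene. For *piwi* they were *pzg* (0.999), *CG3632* (0.999) and *Eip74EF* (0.998), which like *piwi* were lowest in *renilla* siRNA replicate 3. For *AGO1* they were *ed* (1.000), *SCaMC* (1.000) and *Mnt* (0.999), and for *AGO2* *Ptp4E* (0.999), *Pax* (0.998) and *CycD* (0.997). Genes with a correlation above 0.95 numbered 181 for *aub*, 23 for *AGO3*, 388 for *piwi*, 368 for *AGO1* and 271 for *AGO2*, so that the named genes are a few of many.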

How the data were processed

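Polyadenylated RNA of 6 strand-specific libraries was sequenced (reads of 50 nt). Per the submitters' processing notes, the tools were STAR 2.7.3a after cutadapt 1.18, Subread 1.5.3 (featureCounts, by strand per the methods) and DESeq2 1.30.1, on the dm6 (BDGP6) genome. The authors deposited a signal per gene, the DESeq2-normalized count. A second deposited table holds their own comparison of both groups (mean, log2 fold change, standard error, statistic and p-values) and was not used here. Within a column all values were multiples of what 1 read is worth (100% within 0.01 of a whole number), so reads were recovered. The 3 reads that a count of 0 allows are worth 1.39 to 13.1 normalized counts, for counting error only. Symbols were matched to Ensembl 115 (dm6), 16980 directly and 723 by an older symbol of 17807.

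Genes that reached 10 normalized counts in 3 or more libraries were tested on log2 (normalized count + 1) with limma 3.58.1 in R 4.3.3, with a mean-dependent prior, two-sided. Fold changes are on that scale and understate those of low genes. They can differ from the ratio of the mean counts given beside them. The Benjamini-Hochberg adjustment ran over all genes tested, with a threshold of 0.05. The fit was tested on simulated data. The named genes were the 5 members, *ovo*, *l(3)mbt*, partners and cell type markers past the threshold, genes within 25 kb of a member, and the 3 genes most like each member in profile; other partners, markers and neighbours named were chosen after their values were seen. The members and lists were chosen with earlier results of these data known. Alternatives were a pseudocount of 0.5 or 5, all genes with reads, a filter of 50, TMM and quantile scaling, a robust prior, a replicate block, edgeR 4.0.16 and DESeq2 1.42.0 on recovered reads, reads thinned to the smallest library, removal of a spline trend (5 degrees of freedom) in transcript GC and length, and leaving out each library. The trend with 3′ UTR length was added after seeing the data. Python 3.11.15, numpy 2.4.6, pandas 2.3.3, scipy 1.17.1 and matplotlib 3.10.9 were used.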

Additional observations from a re-analysis of the deposited data

How the results depend on the processing

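Of the alternatives run for each gene, *aub* passed in 18 of 19, *AGO3* in 8 of 18, *AGO1* in 17 of 19, *piwi* in 2 of 19 and *AGO2* in 3 of 19, and no fold change turned its direction. With each library left out the log2 fold change ran from −1.36 to −1.11 (*aub*), −1.76 to −1.17 (*AGO3*), −1.12 to −0.94 (*AGO1*), 0.12 to 0.47 (*piwi*) and −0.45 to −0.22 (*AGO2*). *AGO3* did not pass with a pseudocount of 0.5 (−1.44, limma adjusted p = 0.0504), no filter (−1.37, 0.103), quantile scaling (−0.84, 0.196) or thinned reads (−1.70, 0.292), and was not tested with the filter of 50. Once the trend in GC and length was removed, *AGO3* (−0.71) and *AGO1* (−0.28) no longer passed, and *piwi* (0.59) and *AGO2* (−0.30) did. With 3′ UTR length added the values were −0.91, −0.22, 0.49 and −0.37, in that order, with adjusted p of 0.157, 0.0560, 0.0146 and 0.0184. The cause was not tested. Quantile scaling left *AGO2* at −0.07. The count of called genes, 2045, ran from 496 to 3905 with each library left out, and the highest was that without *renilla* siRNA replicate 3.

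The difference in the log2 ratio of *aub* to *AGO3* turned with a pseudocount of 5 (−0.11) and without *ovo* siRNA replicate 1 (−0.19), and the other 88 of 90 ratio alternatives kept their direction. The values with each library left out ran from −0.19 to 0.65. With the length of the longest transcript the level of *AGO1* in the controls was 1132 normalized counts per kb.

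Same-numbered replicates of the groups correlated at 0.44, −0.14 and 0.46 in their deviations from the group means, and not every library correlated best with its own number. These values cannot settle whether the numbers pair the libraries, because the deviations within a group depend on each other. With the replicate block 2978 genes were called, no call of the 5 genes changed, and the adjusted p was 0.00102 for *aub*, 0.0311 for *AGO3*, 0.112 for *piwi*, 0.000107 for *AGO1* and 0.111 for *AGO2*. *AGO3*, at 5 to 22 reads per library, is the value that depth limits most.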
